A study of Mus musculus with 6 samples.

Results

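The heat shock response genes described here are 10 genes fixed by name, the transcription factor Hsf1 and 9 chaperone or cochaperone genes that it is known to activate. The 9 are Hspa1a, Hspa1b, Hspa8, Hsp90aa1, Hsph1, Hspb1, Dnajb1, Bag3 and Hspd1. All 10 were found by symbol in the count table of 24190 genes, and all 10 were among the 14692 genes that passed the expression filter and were tested. The samples came from the parental MTO54 line of organoids, grown from a mouse colorectal tumor of AKP genotype. They were seeded as single cells in basement membrane extract and grown for 2 days, after which 3 samples received control stem cell medium and 3 received Folfiri, for 2 days by the labels and 4 days by a legend for the same comparison. The Folfiri medium held SN38 at 100 nM and 5FU at a labelled 50 μg/μl. 5FU is a fluoropyrimidine that blocks thymidylate synthase and enters RNA and DNA, and SN38, which irinotecan is converted to in the body, traps topoisomerase I on DNA. All 6 samples came from this single line and share its mutations, and the replicates are described as biological. No source used here says whether they were separate cultures, so the p values measure the spread between these samples.

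HSF1 is held inactive in unstressed cells by chaperones, chiefly of the HSP70 and HSP90 families. When misfolded proteins draw these chaperones away, HSF1 forms trimers, binds heat shock elements and switches on chaperone genes, whose products then fold or hold the damaged proteins and shut HSF1 off again. The activity of HSF1 is set mainly on the protein, by trimer formation and phosphorylation, which RNA counts do not measure. Some of the genes are strictly inducible in many cells (Hspa1a and Hspa1b), whereas others (Hspa8, Hspd1) are abundant without stress. In tumor cells HSF1 also supports growth outside of acute stress.

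A heat shock element is a row of 5-base units, nGAAn, in alternating orientation. These elements are shown because they are the sequence that HSF1 binds. Promoter windows of 300 bases (250 before and 50 after a transcription start, RefSeq, GRCm38.p6) were at hand for 7 of the 10 members. Hsf1, Hspa8 and Hsp90aa1 had no window. The windows were searched for neighbouring units that face each other, GAANNTTC or TTCNNGAA. Each of these motifs reads the same on both strands, and they overlap where a row holds 3 or more units. Of the 7 members 6 had such a pair in at least 1 window, and Dnajb1 had none. Of all 32851 windows, 15.1% held a pair, 0.603% a row of 3 or more units and 0.0244% (8 windows) a row of 4. The stretches follow 5′ to 3′ on the strand of the gene, with the units in capitals.
Hspa1a, chr17:34972242-34972271, minus strand: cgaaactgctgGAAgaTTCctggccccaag
Hspa1b, chr17:34959324-34959353, minus strand: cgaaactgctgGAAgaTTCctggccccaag
Hspb1, chr5:135887791-135887820, plus strand: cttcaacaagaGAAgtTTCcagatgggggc
Hspb1, chr5:135887811-135887840, plus strand: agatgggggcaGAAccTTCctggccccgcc
Hsph1, chr5:149636351-149636380, minus strand: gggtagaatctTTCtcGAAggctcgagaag
Hsph1, chr5:149636280-149636308, minus strand: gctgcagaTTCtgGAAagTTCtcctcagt
Hspd1, chr1:55088053-55088082, minus strand: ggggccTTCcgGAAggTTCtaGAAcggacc
The Hspa1a and Hspa1b pair began 104 bases before each start, in stretches with the same letters, and the 2 whole windows differed at 4 of 300 positions. The Hspd1 row held 4 units and lay 144 bases before one of its annotated starts. It lay after another annotated start, whose window held no pair, and its printed stretch overlapped an annotated exon of Hspd1. The same bases, read on the other strand, lay 89 bases before the start of Hspe1, which encodes the cochaperonin of Hspd1 and is transcribed away from it. The Hsph1 row of 3 units lay after its starts, as did a single pair in Bag3 (43 bases after), which is not printed. Such a match is a description of letters and was not tested as a binding site.

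The counts on genes ranged from 22103591 to 30098210 per sample, and TMM factors, which scale for composition, from 0.880 to 0.966 in controls and from 1.10 to 1.11 after Folfiri. Levels below are TMM-normalized CPM, gene counts as a part of the library total scaled by these factors, and tests are edgeR's quasi-likelihood test with Benjamini-Hochberg adjustment over all tested genes. The median log2 fold change over the tested genes was 0.02 with TMM and 0.30 when libraries were scaled by their totals alone, so directions below are relative to the TMM scale. Control replicate 1 stood apart from the other controls, with a chi-square per degree of freedom of 25.5 and 24.0 against them, while they differed from each other by 4.04. Folfiri replicate 3 also stood apart, at 13.4 and 12.9 against the other treated samples, which differed by 3.78. All 7 epithelial markers were above 1 CPM in both groups, and their summed level was 5730 to 6637 CPM in controls and 4646 to 4816 CPM after Folfiri. Of the 7, Cdx2, Epcam, Krt19 and Krt8 were called lower after Folfiri (log2 fold changes of -1.53, -0.94, -0.62 and -0.27), Cdh1 was called higher (0.21), and Krt18 (-0.18) and Vil1 (-0.11) were not called. Of the defining markers of other cell types, Lyz2 and Col3a1 had at most 2 counts and Tyrobp and Col1a2 at most 1 count in any sample. Cd3e and Lum were not among the genes of the count table. The summed level of the other 7 immune markers was 21.4 to 26.1 CPM in controls and 21.6 to 22.6 CPM after Folfiri, nearly all of it Cd68, and that of the other 5 fibroblast markers was 1.08 to 1.44 and 1.97 to 2.41 CPM. Among these low markers, Dcn (log2 fold change 4.44), Pdgfra (1.54) and Ptprc (1.39) were called higher after Folfiri, at no more than 40 counts in any sample, and Col1a1 (-1.47) was called lower. The 4 endothelial markers summed to 79.5 to 132 CPM and 68.9 to 79.2 CPM, mostly Cdh5, and Vwf was called lower (log2 fold change -1.13). Mitochondrially encoded genes took 2.09% to 2.36% of counts in controls and 3.94% to 4.44% after Folfiri. Their part in the results was not tested.

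The 10 genes did not move in one direction. After Folfiri, Hsph1, Hsf1, Hsp90aa1 and Hspd1 were higher, Hspa8, Dnajb1 and Bag3 were lower, and Hspa1a, Hspa1b and Hspb1 did not pass the threshold. Of all tested genes 79.1% were called, 40.3% as higher and 38.8% as lower, so 4 of 10 higher and 3 of 10 lower is close to the background. By total counts only, 6 members were higher and 2 lower, beside 7322 and 4250 of the 14692 tested genes. The other alternatives and samples left out gave 4 to 6 higher and 3 or 4 lower, with 6 higher without control replicate 3. The median log2 fold change of the 10 was 0.30, beside 0.02 for the tested genes together. It fell to 0.09 without control replicate 1. The median absolute log2 fold change was 0.64 for the members and 0.73 for all tested genes. Only Hsph1 reached an absolute log2 fold change of 1, a size that 36.4% of tested genes reached. In 8 members the 3 treated samples lay outside the range of the controls, beside 81.4% of all tested genes. In bulk RNA, a change in the share of cells that express a gene and a change in RNA per cell cannot be told apart.

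**Figure D1:**
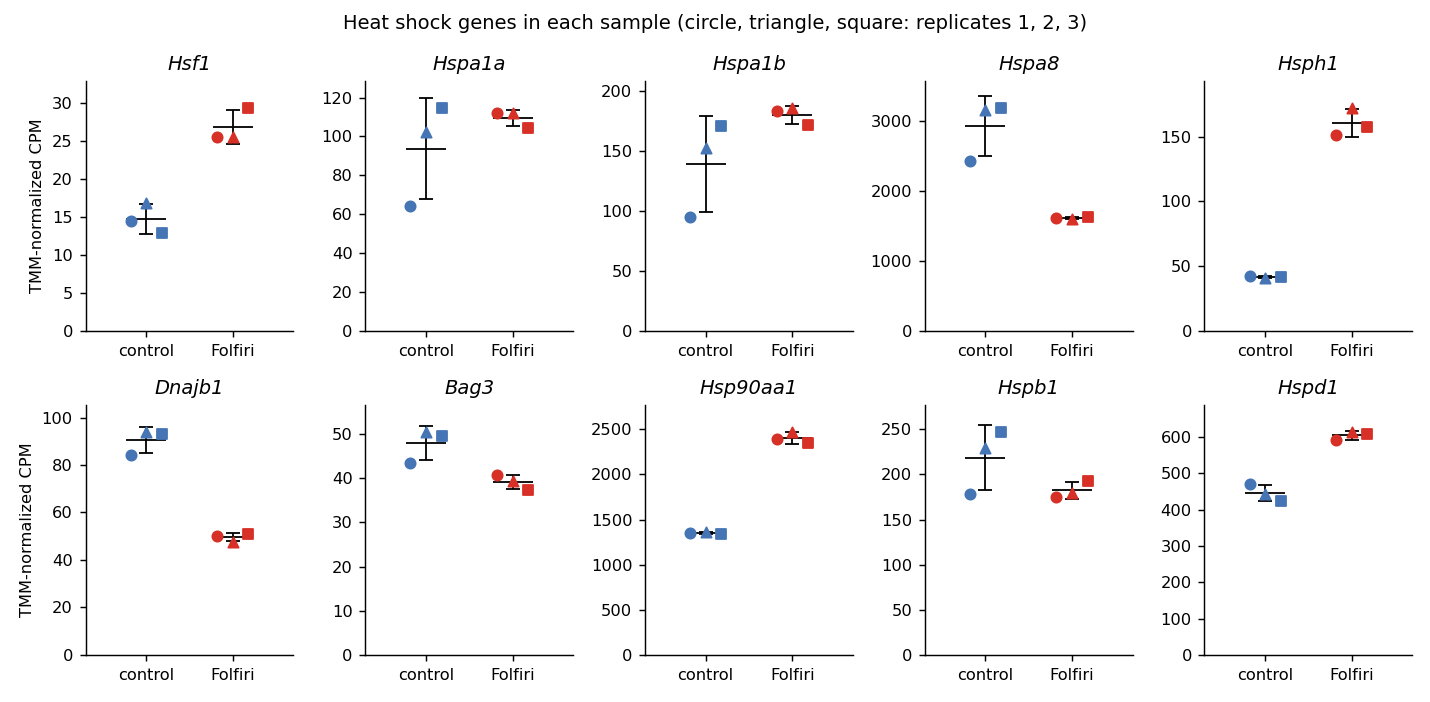
TMM-normalized CPM of each heat shock gene in the 3 control (blue) and 3 Folfiri (red) samples, with each vertical axis starting at 0. Horizontal bars are group means and error bars the SD (n = 3). Hsph1 rose from about 42 to 160 CPM with tight replicates. Control replicate 1 (circle) was the lowest control for Hspa1a, Hspa1b, Hspa8, Hspb1, Dnajb1 and Bag3.

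Hsf1 (ENSMUSG00000022556, chromosome 15 of GRCm38 from 76477422 to 76501913) encodes the master regulator of the response. Its level was 14.4, 16.8 and 12.9 CPM in control replicates 1, 2 and 3 and 25.6, 25.5 and 29.3 CPM in Folfiri replicates 1, 2 and 3. Every treated sample lay above every control. Means with SD (n = 3) were 14.7 ± 1.96 CPM for controls and 26.8 ± 2.20 CPM for treated samples, and edgeR put the log2 fold change at 0.86 with an SE of 0.11 (adjusted p = 3.65e-05). Hsf1 RNA was the lowest of the 10 per length in both groups.
The other factors of the family went separate ways. Hsf2, a partner that can form mixed trimers with HSF1, rose from 14.2 ± 1.78 to 19.9 ± 0.395 CPM (log2 fold change 0.49, adjusted p = 0.00143, edgeR). Hsf4, best known from the lens, fell from 13.7 ± 3.08 to 4.41 ± 0.569 CPM (log2 fold change -1.62, adjusted p = 1.06e-05, edgeR). Hsf3 and Hsf5 did not pass the expression filter. Hsbp1, which encodes a small protein that binds HSF1 trimers, was not called at a log2 fold change of -0.03, while its relative Hsbp1l1 rose by 1.21 on the log2 scale from a low level of 1.98 CPM.

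Hspa1a and Hspa1b are neighbouring genes without introns on chromosome 17 (34969190 to 34972156 and 34956436 to 34959238, minus strand) that encode the stress-inducible cytosolic HSP70. Hspa1a was at 64.5, 102 and 115 CPM in the controls and at 112, 112 and 104.5 CPM after Folfiri. The groups overlapped, with control replicate 1 well below all other samples. The log2 fold change of Hspa1a was 0.23 (SE 0.17, 95% interval -0.14 to 0.59, adjusted p = 0.229, edgeR).
Hspa1b was at 94.5, 152 and 171 CPM in the controls and at 183, 186 and 171 CPM after Folfiri. The treated samples lay just above the controls, with the third replicates of both groups almost equal. Its log2 fold change was 0.37 (SE 0.17, 95% interval -0.0045 to 0.75, adjusted p = 0.0649, edgeR). Without control replicate 1, the log2 fold changes became 0.02 for Hspa1a and 0.16 for Hspa1b, the latter called at an adjusted p of 0.0455, and without control replicate 3 they became 0.39 and 0.54, with both genes called (adjusted p = 0.0399 and 0.00979, edgeR).
In control replicate 1 the level of Hspa1a was 0.595 and that of Hspa1b 0.585 times the mean of the other controls, lower than in all but 2.76% and 2.62% of tested genes. Reads cannot be assigned with certainty between these genes, since 58.8% of the 50-base words of Hspa1a transcripts also occur in Hspa1b. With the counts of both summed into 1 gene, the mean with SD (n = 3) went from 233 ± 65.9 to 289 ± 11.8 CPM, and edgeR put the log2 fold change at 0.31 with a 95% interval from -0.06 to 0.69 (adjusted p = 0.110). The sum was called by total counts only at 0.60 (adjusted p = 0.00465), with a replicate block at 0.35 (0.0233), without a filter at 0.29 (0.0304) and without control replicate 3 at 0.48 (0.0177). It was 0.10 without control replicate 1 (0.172). By total counts only the single genes were also called, Hspa1a at 0.52 and Hspa1b at 0.66. Counts of Hspa1a were 0.670 to 0.682 times those of Hspa1b in the controls and 0.603 to 0.612 times after Folfiri.

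Hspa8 (chromosome 9, 40800984 to 40810087) encodes HSC70, the constitutive cytosolic HSP70 that folds newly made proteins and uncoats clathrin vesicles. It stood at 2430, 3149 and 3186 CPM in the controls and at 1611, 1601 and 1624 CPM after Folfiri. The treated samples were close to each other and below every control, of which replicate 1 was again the lowest. Means with SD (n = 3) were 2921 ± 426 CPM for controls and 1612 ± 12.0 CPM for treated samples, and edgeR put the log2 fold change at -0.86 with an SE of 0.12 (adjusted p = 5.23e-05).
Part of these reads can be placed elsewhere, since 39.4% of the 50-base words of Hspa8 transcripts occur in other genes. The gene Gm15459, which shares 34.6% of them, had 0.591 to 0.608 times the count of Hspa8 in every sample. The counts of 8 such genes summed to 1.23 to 1.25 times that of Hspa8 in every sample. Adding them, an alternative chosen after the data were seen, left the log2 fold change at -0.86, as it must with so constant a ratio, and the same reads may be counted more than once in that sum.
The ratio of inducible to constitutive HSP70 needs no scaling between samples. Counts of Hspa1a plus Hspa1b were 0.0654, 0.0808 and 0.0896 times those of Hspa8 in the controls, against 0.183, 0.186 and 0.170 times in the treated samples. The 3 treated samples lay above all controls, a log2 difference of 1.20 with SDs of 0.23 in controls and 0.07 after Folfiri (p = 0.1 by an exact permutation of samples, two-sided, which 3 against 3 cannot go below, and 0.15 adjusted over the 3 ratios tested). Between 1.08 and 1.30 was found when each sample was left out in turn.

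**Figure D2:**
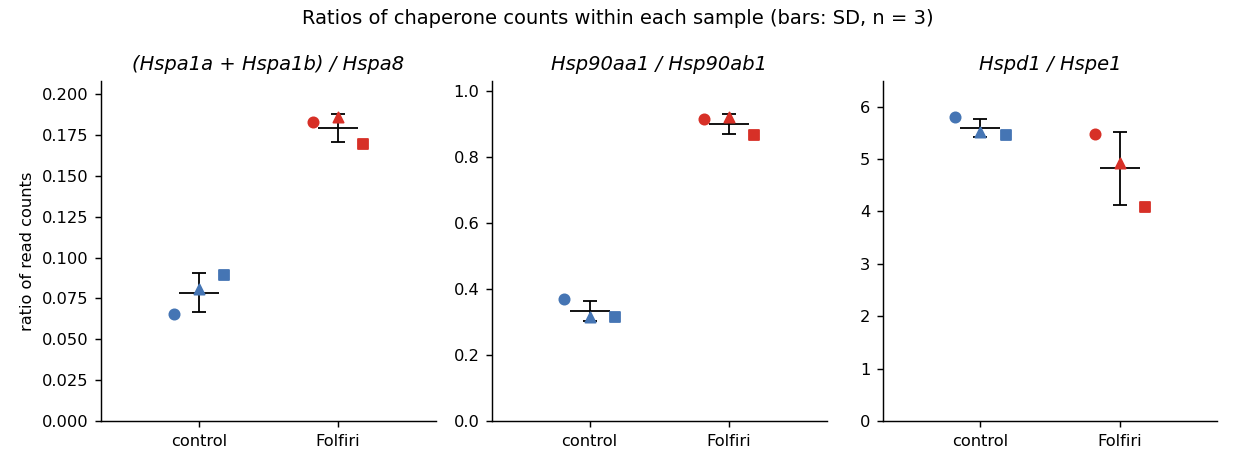
Ratio of read counts within each sample, on axes that start at 0, for inducible over constitutive HSP70, for Hsp90aa1 over Hsp90ab1 and for Hspd1 over Hspe1. Black bars are group means with the SD (n = 3). The first 2 ratios were separate between control (blue) and Folfiri (red), and the third overlapped.

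Hsph1 (chromosome 5, 149614287 to 149636376) encodes HSP105, a member of the HSP110 family that exchanges nucleotide on HSP70 and prevents aggregation. It stood at 42.4, 40.8 and 41.8 CPM in the controls and at 151, 172 and 157 CPM after Folfiri. Control samples differed by less than 2 CPM, and every treated sample lay far above them. Means with SD (n = 3) were 41.7 ± 0.798 CPM for controls and 160 ± 10.7 CPM for treated samples, and edgeR put the log2 fold change at 1.94 with an SE of 0.07 (adjusted p = 7.60e-09). This was at the percentile 93.3 of the log2 fold changes of all tested genes. No 50-base word of its transcripts occurs in another gene.
Its relatives outside the 10 were mixed. Hspa4, another HSP110, had a log2 fold change of 0.69 (adjusted p = 8.34e-06, edgeR), and Hspa4l one of -0.19 (adjusted p = 0.130, edgeR), both named after their values were seen. Of the 6 other cytosolic HSP70 and HSP110 genes tested, 4 were higher and 1 was lower, so 83.3% were called beside 79.1% of all tested genes. Without control replicate 1, the lower count was 2. The largest increases were those of Hspa12b (log2 fold change 2.27) and Hspa1l (1.31), with means of 0.387 and 0.720 CPM in controls and 1.95 and 1.77 CPM after Folfiri. Both passed the naming level of 1 CPM through the treated samples, and with at least 1 CPM required in all samples the list had 2 higher genes in place of 4. The 1 lower gene, Hspa2, had a log2 fold change of -0.24 (adjusted p = 0.0467, edgeR), a call that was lost under 10 of 13 alternatives and turned to an uncalled increase under 1 more.

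Dnajb1 (chromosome 8, 83608193 to 83612653) encodes HSP40, the J protein that delivers clients to HSP70 and helps it pull aggregates apart. It was at 84.2, 94.1 and 93.2 CPM in the controls and at 50.1, 47.6 and 50.8 CPM after Folfiri. Every treated sample was below every control. With SD (n = 3), the means were 90.5 ± 5.45 CPM for controls and 49.5 ± 1.67 CPM for treated samples, and edgeR put the log2 fold change at -0.87 with an SE of 0.07 (adjusted p = 1.54e-06).
Among 8 other cytosolic J proteins, 3 were higher and 3 lower, beside 40.3% and 38.8% of all tested genes, and 5 were higher by total counts only. Dnajc7, which binds HSP70 and HSP90, rose from 68.6 ± 1.13 to 169 ± 8.22 CPM (log2 fold change 1.30), and Dnaja1, a partner of HSC70, from 150 ± 5.60 to 248 ± 2.25 CPM (0.73). Dnajb2 fell from 37.4 ± 4.32 to 10.4 ± 1.0 CPM (log2 fold change -1.84) and Dnajb5 from 6.41 ± 1.05 to 2.91 ± 0.0667 CPM (-1.14).

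Bag3 (chromosome 7, 128523616 to 128546981) encodes a cochaperone that couples HSP70 to small heat shock proteins and to selective autophagy. It was at 43.5, 50.6 and 49.7 CPM in the controls and at 40.7, 39.4 and 37.4 CPM after Folfiri. The groups did not overlap, but the nearest samples were 43.5 and 40.7 CPM. Means with SD (n = 3) were 47.9 ± 3.86 CPM for controls and 39.2 ± 1.65 CPM for treated samples, and edgeR put the log2 fold change at -0.29 with an SE of 0.08 (adjusted p = 0.00841). With scaling by total counts only it was -0.01 (adjusted p = 0.911), so this call depended on the scaling.
Of 8 other BAG proteins and HSP70 cofactors, 4 were higher and 1 lower, with 62.5% called beside 79.1% of all tested genes (3 lower without control replicate 1, and 2 higher without control replicate 2). Hspbp1, a nucleotide exchange factor of HSP70, rose from 19.5 ± 2.75 to 43.6 ± 4.98 CPM (log2 fold change 1.16), and Bag5 had a log2 fold change of 0.56 (adjusted p = 0.00957, edgeR). Stub1, the ubiquitin ligase CHIP that marks chaperone clients for the proteasome, fell from 45.8 ± 2.37 to 23.7 ± 1.02 CPM (log2 fold change -0.95).

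Hsp90aa1 (chromosome 12, 110690605 to 110702728) encodes the stress-responsive cytosolic HSP90. It was at 1346, 1362 and 1336 CPM in the controls and at 2389, 2476 and 2351 CPM after Folfiri. Replicates agreed closely in both groups, and control replicate 1 did not stand apart for this gene. Control and treated means with SD (n = 3) were 1348 ± 12.9 CPM for controls and 2405 ± 64.3 CPM for treated samples, and edgeR put the log2 fold change at 0.84 with an SE of 0.09 (adjusted p = 5.91e-06). Of the 50-base words of its transcripts 47.5% occur in other genes. Of these, Gm5511, which shares 5.35% of the words, had 0.0427 to 0.0487 times the count of Hsp90aa1, and adding it, an alternative chosen after the data were seen, gave a log2 fold change of 0.84 (adjusted p = 5.88e-06, edgeR). A count that small can move the value little, and Gm12346 and Gm5844, which share 41.8% and 29.9%, were not among the genes of the count table.
The constitutive paralog Hsp90ab1 fell from 4066 ± 370 to 2675 ± 52.8 CPM (log2 fold change -0.60, adjusted p = 0.000305, edgeR). The ratio of Hsp90aa1 to Hsp90ab1 counts was 0.369, 0.314 and 0.316 in control samples, against 0.914, 0.919 and 0.866 in treated ones. The groups were separate, with a log2 difference of 1.44 and SDs of 0.13 in controls and 0.05 after Folfiri (p = 0.1 by the same exact permutation, again the lowest possible, and 0.15 adjusted over 3 ratios).
Of the 11 genes of the HSP90 machine, Hsp90ab1 and its cochaperones, 7 were higher and 2 lower, so 81.8% were called beside 79.1% of all tested genes. Unc45a, which guides HSP90 to myosin, rose from 35.8 ± 1.76 to 118 ± 3.90 CPM (log2 fold change 1.72), and Chordc1, an HSP90-binding protein, from 25.8 ± 5.32 to 71.5 ± 1.06 CPM (1.47). Fkbp5, a cochaperone of steroid receptors, fell from 58.9 ± 1.63 to 40.9 ± 1.46 CPM (log2 fold change -0.52).

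Hspb1 (chromosome 5, 135887919 to 135889563) encodes the small heat shock protein HSP25, which holds unfolded proteins without ATP. It was at 178, 230 and 248 CPM in the controls and at 175, 180 and 193 CPM after Folfiri. The groups overlapped through control replicate 1, and the other controls lay above all treated samples. The log2 fold change was -0.26 (SE 0.11, 95% interval -0.50 to -0.01, adjusted p = 0.0518, edgeR), and without control replicate 1 it was -0.39 (adjusted p = 0.0001). With scaling by total counts only the sign turned, at a log2 fold change of 0.02 (adjusted p = 0.806). Of its 50-base words 50.1% occur in other genes.
Of 9 other small heat shock proteins, 4 were tested, with 1 higher and 1 lower, 50% called beside 79.1% of all tested genes. The higher count became 3 without control replicate 1 and 2 without control replicate 2, control replicate 3 or Folfiri replicate 3. It was also 3 by total counts only or without a filter, and 2 with upper quartile scaling or at least 1 CPM in all samples. Cryab, the αB-crystallin, rose from 6.25 ± 1.27 to 21.0 ± 1.60 CPM (log2 fold change 1.75), and Hspb6 fell from 12.7 ± 1.19 to 7.54 ± 0.465 CPM (-0.75).

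Hspd1 (chromosome 1, 55077835 to 55088243) encodes HSP60, the chaperonin of the mitochondrial matrix. It was at 470, 443 and 424 CPM in the controls and at 592, 615 and 608 CPM after Folfiri. Every treated sample lay above every control. With SD (n = 3), the means were 446 ± 23.0 CPM for controls and 605 ± 11.9 CPM for treated samples, and edgeR put the log2 fold change at 0.44 with an SE of 0.08 (adjusted p = 0.000285). Of its 50-base words 42.1% occur in other genes.
Hspe1, across the shared promoter region printed above, rose from 79.7 ± 1.78 to 127 ± 20.4 CPM (log2 fold change 0.68, adjusted p = 0.000136, edgeR). The ratio of Hspd1 to Hspe1 counts was 5.79, 5.52 and 5.46 in control samples, against 5.48, 4.92 and 4.09 in treated ones. The ratios overlapped, with a log2 difference of -0.22 (exact two-sided permutation test, p = 0.2, and 0.2 adjusted over 3 ratios). The difference ran from -0.318 to -0.107 when each sample was left out in turn. Exons of Hspd1 and Hspe1 overlap by 112 bases on opposite strands. Whether the counting used strand is not given in the sources used here.
Of the 10 other genes of the mitochondrial folding system, 4 were higher and 4 lower, close to the 40.3% and 38.8% of all tested genes. Hspa9, the mitochondrial HSP70, rose from 380 ± 40.0 to 786 ± 19.8 CPM (log2 fold change 1.05), and Clpp, the subunit of a matrix protease, from 23.5 ± 2.43 to 50.8 ± 5.63 CPM (1.11). Lonp1, another matrix protease, fell from 519 ± 50.0 to 115 ± 4.63 CPM (log2 fold change -2.17), Clpb, a disaggregase, from 53.1 ± 0.135 to 17.2 ± 0.471 CPM (-1.63), and Trap1, the mitochondrial HSP90, from 74.5 ± 0.544 to 43.0 ± 0.810 CPM (-0.79).

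**Figure D3:**
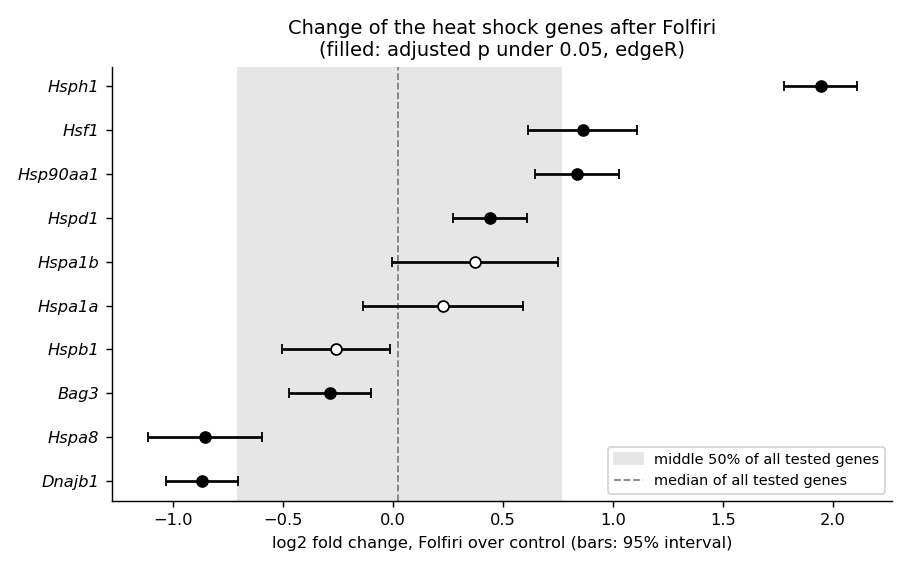
Log2 fold change of each heat shock gene, Folfiri over control, with its 95% interval from the edgeR fit. Filled points passed an adjusted p of 0.05, the grey band spans the middle 50% of all tested genes (-0.71 to 0.76) and the dashed line is their median (0.02). The points of Hsph1, Hsf1 and Hsp90aa1 lie above the band, and those of Hspa8 and Dnajb1 below it. The intervals of Hsf1, Hsp90aa1 and Hspa8 reach into the band, and that of Dnajb1 reaches its edge.

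Per length of exon, Hspa8 had the highest control level of the 10, at 679 CPM per kb, followed by Hsp90aa1 at 343, Hspb1 at 212 and Hspd1 at 169 CPM per kb. Hspa1b followed at 49.7, Hspa1a at 31.6, Dnajb1 at 28.2, Bag3 at 18.7, Hsph1 at 5.74 and Hsf1 at 2.07 CPM per kb. In this order the samples of Hspb1 and Hspd1 overlapped, as did those of Hspa1b and Hspa1a and of Hspa1a and Dnajb1, and the other neighbours were separate. After Folfiri, Hsp90aa1 came first at 612 CPM per kb and Hspa8 second at 375, with Hspd1 at 229 now above Hspb1 at 177 CPM per kb. Hsph1 at 22.1 CPM per kb stood above Dnajb1 at 15.4 and Bag3 at 15.3 CPM per kb, and Hsf1 was last at 3.77. Only Dnajb1 and Bag3 overlapped among neighbours after Folfiri. Lengths are of all annotated exons merged. Levels are of the counts assigned to each gene, so the order can depend on how shared reads were placed. Of the 50-base words of Hspa8 and Hsp90aa1, 39.4% and 47.5% occur in other genes. The counts of 8 genes that share words with Hspa8 summed to 1.23 to 1.25 times its count. These counts were not added, so whether Hsp90aa1 or Hspa8 came first after Folfiri is not settled.

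**Figure D4:**
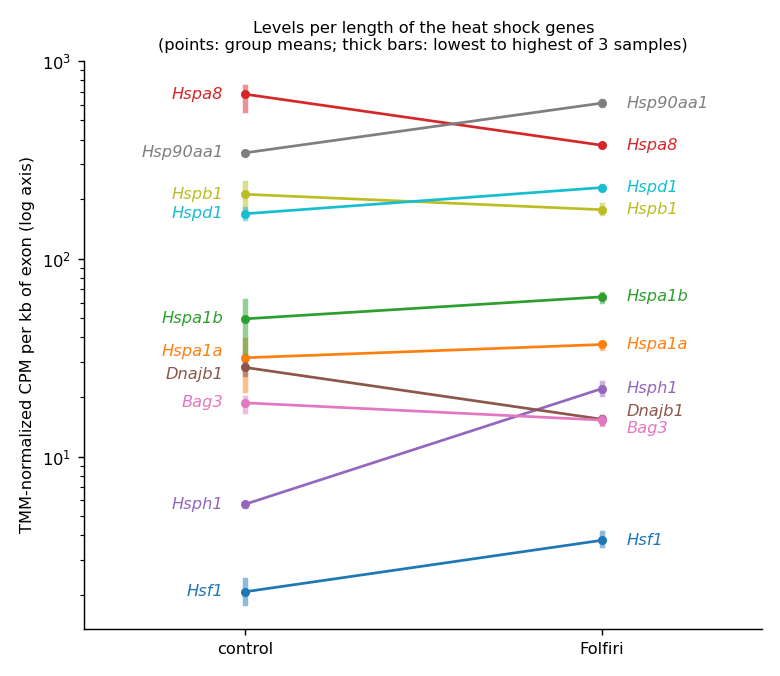
Level of each heat shock gene per kb of exon (TMM-normalized CPM per kb, log axis) in control and Folfiri samples. Points are group means and thick bars run from the lowest to the highest of 3 samples. The lines of Hsp90aa1 and Hspa8 cross, as do those of Hspd1 and Hspb1, and Hsph1 climbs past Bag3 and Dnajb1.

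Over all 82 other chaperone, cofactor and target genes on the lists, 74 were tested, of which 34 were higher and 20 lower, with a median log2 fold change of 0.16 (background: 40.3% higher, 38.8% lower and a median of 0.02). By total counts only, 47 were higher and 16 lower. Of the 4 chaperones of the endoplasmic reticulum, Hspa5 (BiP) fell from 1071 ± 96.3 to 459 ± 10.8 CPM (log2 fold change -1.22) and Hsp90b1 (GRP94) from 864 ± 26.3 to 273 ± 8.88 CPM (-1.66). Hyou1, an HSP110 relative of the same compartment, was higher at a log2 fold change of 0.28 (adjusted p = 0.00367, edgeR). The cytosolic chaperonin TRiC and its partner prefoldin had 5 of 14 genes higher and 4 lower. The lower count ran from 2 to 6 when each sample was left out, with 2 without control replicate 2, Folfiri replicate 1 or Folfiri replicate 2. By total counts only, 8 were higher and 1 lower. Among the 14 genes Cct3 rose from 166.5 ± 8.49 to 320 ± 15.0 CPM (log2 fold change 0.94) and Pfdn4 had a log2 fold change of 0.97, whereas Tcp1 fell from 600 ± 15.4 to 411 ± 4.97 CPM (-0.55) and Cct4 had one of -0.34. Of 5 further genes known as HSF1 targets, 3 were higher and 1 lower. Ier5, which encodes a regulator that promotes HSF1 dephosphorylation and is also induced by DNA damage, rose from 13.5 ± 2.25 to 60.1 ± 4.98 CPM (log2 fold change 2.16, adjusted p = 8.96e-08, edgeR). Zfand2a, which encodes a proteasome-associated protein, rose by 0.53 on the log2 scale.

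**Figure D5:**
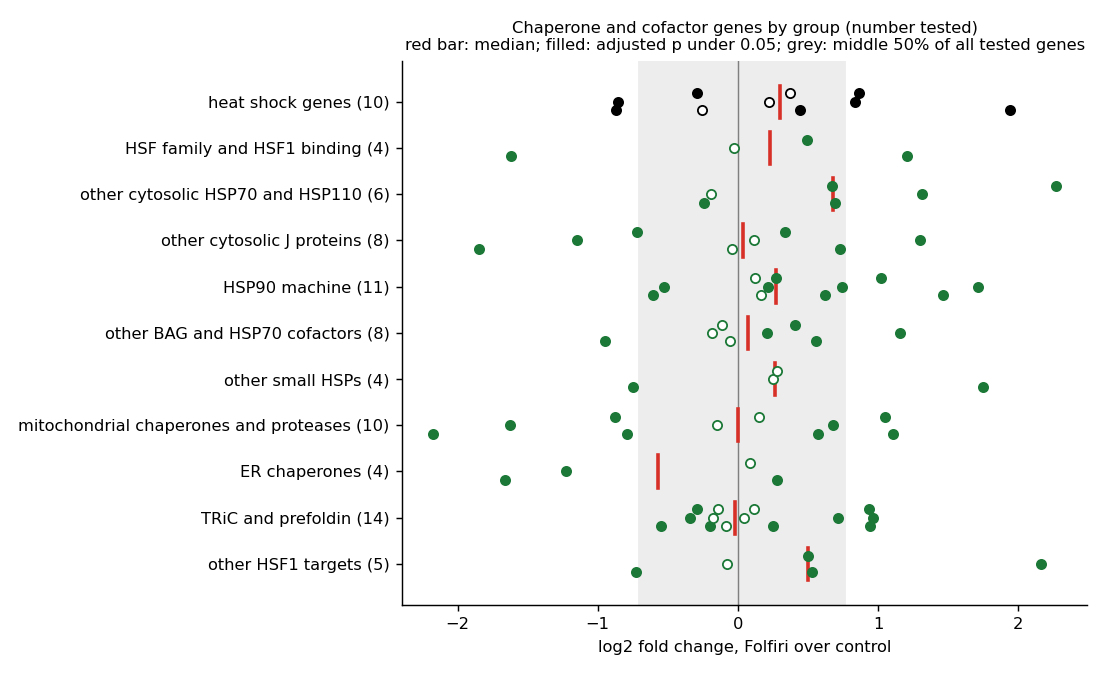
Log2 fold change, Folfiri over control, of every tested gene on each list, with the 10 heat shock genes in black at the top and the number tested in brackets. Filled points passed an adjusted p of 0.05, red bars are list medians and the grey band spans the middle 50% of all tested genes (-0.71 to 0.76). Each list holds genes on both sides of 0.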

How the data were processed

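The authors aligned the reads with STAR 2.5.2 to the mouse genome (GRCm38) with GENCODE vM25, used Rsubread to assign them to genes, and deposited raw counts. How reads with several positions were counted is not given in the sources used here. Symbols, positions and exon lengths came from GENCODE vM21, on the same build. The deposited counts were tested with edgeR 4.0.16 in R 4.3.3 (default expression filter, TMM, quasi-likelihood test, Benjamini-Hochberg adjustment, threshold 0.05). The SE is the log2 fold change divided by the root of the test's F. Shared 50-base words were counted on either strand of annotated transcripts. Ratios were compared by exact permutation. Alternatives were other scalings and filters, DESeq2 1.42.0, a replicate block and leaving out each sample. The procedure was tested on simulated data. Depth was 22103591 to 30098210 counts per sample, and error from counting alone is small at the levels of the 10 genes.

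The members and lists were chosen with earlier results of these data known. Named were the 10 members, Hsf2, Hspa5, Hspa9, Hspe1, Hsp90ab1, Hsp90b1 and Trap1, and up to 2 genes per direction in each other list with the largest called change, separate groups and a mean of at least 1 CPM. Values of Hsbp1, Hspa4 and Hspa4l are given outside this rule. A gene that this rule names is not reported here.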

Additional observations from a re-analysis of the deposited data

How the results depend on the processing

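Across the scalings, filters and tests and with each sample left out, the calls of Hsf1, Hsp90aa1, Hsph1 and Hspd1 as higher and of Hspa8 and Dnajb1 as lower kept their direction and their side of the threshold. The other 4 members did not. With total counts only, log2 fold changes became 0.52 for Hspa1a (adjusted p = 0.0103), 0.66 for Hspa1b (0.00301) and 0.60 for their sum (0.00465), Bag3 lost its call at -0.01, Hspb1 turned to 0.025 and Hspa2 to 0.036, and the median of the members became 0.59 in place of 0.30. The members' median minus that of the whole tested set was 0.28 with TMM, 0.29 with total counts and -0.002 without a filter. With total counts 7322 genes were higher and 4250 lower, against 5926 and 5697. Hspa1b was also called with upper quartile scaling (0.43) and without a filter (0.35, and 0.29 for the sum), and Hspb1 without a filter (-0.28) and with DESeq2 (-0.26). Leaving out each sample gave ranges of 0.016 to 0.385 for Hspa1a, 0.16 to 0.54 for Hspa1b, 0.10 to 0.48 for their sum, -0.39 to -0.17 for Hspb1 and 0.087 to 0.391 for the members' median. The cause of these moves was not tested.

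The replicate numbers are not given as a shared batch, and deviations of same-numbered samples had correlations of 0.03, -0.22 and 0.04. With the number as a replicate block, Hspa1b (0.41), Hspb1 (-0.25) and the sum of Hspa1a and Hspa1b (0.35) gained a call. In that fit 11499 genes were called in place of 11623. The log2 differences of the 3 ratios stayed at 1.20, 1.44 and -0.22, as they must when each number pairs a control with a treated sample. Not every sample correlated best with its own number.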
